A study of Homo sapiens with 4 samples.

Results

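The IKK kinases and the regulators that act above them in NF-κB signalling were followed in A549 cells, a human lung adenocarcinoma line, with and without overexpression of USP12, a deubiquitinase. The 10 genes were chosen by their symbol: CHUK, IKBKB, IKBKE, TBK1, MAP3K7, MAP3K14, TRAF2, TRAF3, TNFAIP3 and TNIP1. All 10 were found, of 50868 genes with deposited counts, and all 10 were among the 15222 genes tested. Messenger RNA was sequenced in 4 libraries, 2 from control A549 cells carrying the empty vector and 2 from A549 cells overexpressing USP12. In the study, tagged human USP12 was delivered in a lentiviral pLVX vector, and the tag used for these libraries is not given in the sources used here. Neither group was given any further treatment in the labels, and whether the 2 libraries of a group came from separate cultures is not stated, so p-values measure only the spread between these libraries, which may be technical.

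In the resting cell, NF-κB dimers are held in the cytoplasm by IκB proteins. In the canonical branch, receptors recruit TRAF adaptors, ubiquitin chains are built, and the kinase TAK1, encoded by MAP3K7, activates an IKK complex of IKKα (CHUK), IKKβ (IKBKB) and a regulatory subunit, which phosphorylates IκB for degradation. In the alternative branch, the kinase NIK (MAP3K14) is kept scarce by TRAF2 and TRAF3 until a receptor engages them, and then acts through IKKα. The related kinases IKKε (IKBKE) and TBK1 phosphorylate interferon regulatory factors. A20 (TNFAIP3), an enzyme that edits ubiquitin chains, and its ubiquitin-binding partner ABIN-1 (TNIP1) restrain the pathway and are themselves known NF-κB target genes. The comparison addressed here is whether the messenger RNAs of these signalling genes differed between USP12 and control cells, in a study concerned with how USP12 restrains NF-κB. The paper proposes a route at the level of protein, in which USP12 removes ubiquitin from PPM1B, a phosphatase that inactivates IKKβ, and so stabilizes it. Protein levels and phosphorylation were not measured in these libraries.

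USP12 itself (ENSG00000152484) had 15.2 and 34.4 CPM in control replicates 1 and 2, and 1745 and 2235 CPM in USP12 replicates 1 and 2. Its log2 fold change was 6.32, which did not pass adjustment over all genes (edgeR adjusted p = 0.0975). CPM are counts relative to the library total, adjusted between libraries by edgeR's TMM factors. The libraries held between 14280081 and 16305356 counts, and 3 counts corresponded to between 0.166 and 0.227 CPM, which covers counting error only. The control libraries stood apart from each other: across all tested genes the SD of their log2 ratio was 1.32, against 0.62 for the USP12 libraries, and control replicate 1 alone carries another date-like prefix in its column heading. The 9 lung epithelial and A549 markers summed to 19610 and 15742 CPM in control cells and to 14812 and 14086 CPM in USP12 cells. The summed level of 12 immune, endothelial and fibroblast markers was between 59.0 and 133 CPM, with CD3E and DCN at 0 counts in every library. In RNA from whole cultures, fewer expressing cells and less RNA per cell cannot be told apart.

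Of the 10 genes, TNIP1, IKBKE and TNFAIP3 were lower in both USP12 libraries than in both control libraries, IKBKB was higher in both, and the other 6 were not separated. Over all genes tested, 17.0% were lower and 19.5% higher in both USP12 libraries, so these counts of 3 and 1 were not far from the background. The study called a gene downregulated at P of 0.05 or less if the log2 ratio was also -1 or below. Whether that P was adjusted is not given in the sources used here, and the unadjusted p of edgeR was used for it. By this criterion TNIP1 was called lower, where 4.41% of all genes were. None of the 10 met the mirrored criterion of 1 or higher, which 2.92% of all genes met. After adjustment over all genes, 0 of the 10 passed 0.05 in edgeR's quasi-likelihood test, 1 of the 10 had an unadjusted p under 0.05, and 7.59% of all genes did. The edgeR exact test and the DESeq2 Wald test also gave 0 of the 10 at an adjusted p under 0.05. The median log2 fold change of the 10 genes was -0.21, beside -0.057 for all genes.

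**Figure D1:**
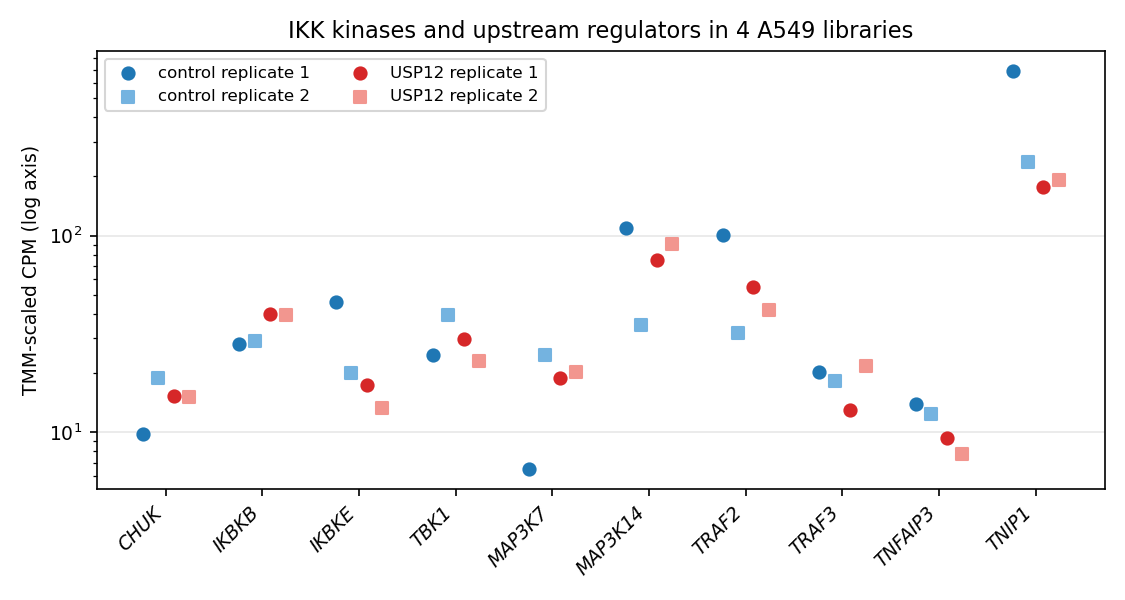
TMM-scaled CPM on a log axis for each of the 10 genes, with a point for each of the 4 libraries. TNIP1 was between 177 and 691 CPM, and the spread between the control libraries (blue) was wider than that between the USP12 libraries (red) for 8 of the 10 genes.

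The canonical kinases came first. IKBKB (ENSG00000104365, chromosome 8 of GRCh38, 42271302 to 42332460, plus strand), the catalytic subunit that does most of the phosphorylation of IκB, had 28.1 and 29.0 CPM in control replicates 1 and 2, and 40.0 and 39.6 CPM in USP12 replicates 1 and 2. The USP12 libraries were both above the control libraries, and within each group the libraries lay close together. The mean was 28.6 ± 0.589 CPM in control cells and 39.8 ± 0.234 CPM in USP12 cells (SD, n = 2 each), a ratio of 1.39. The log2 fold change was 0.48 (95% interval -0.46 to 1.42, edgeR adjusted p = 0.912 by the quasi-likelihood test used throughout). That test shares its estimate of the spread between genes of similar level. Leaving out any 1 library gave values from 0.46 to 0.51.

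CHUK (ENSG00000213341, chromosome 10, 100188300 to 100229596, minus strand), which encodes IKKα, was measured at 9.84 and 18.8 CPM in control cells and at 15.3 and 15.1 CPM in USP12 cells. Both USP12 libraries lay between the controls. The log2 fold change was 0.081 (95% interval -1.14 to 1.30, edgeR adjusted p = 0.986). MAP3K7 (ENSG00000135341, chromosome 6, 90513573 to 90587086, minus strand), the TAK1 kinase above the complex, was measured at 6.51 and 24.8 CPM in control cells, a ratio of 3.81 between them, and at 18.9 and 20.2 CPM in USP12 cells. Here too the USP12 libraries fell inside the control range. Its log2 fold change was 0.32 (95% interval -1.33 to 1.96, edgeR adjusted p = 0.971).

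IKBKE and TBK1, close relatives in sequence and substrates, did not show the same values. IKBKE (ENSG00000263528, chromosome 1, 206470476 to 206496889, plus strand), an inducible kinase, was measured at 45.7 and 20.1 CPM in control cells and at 17.3 and 13.2 CPM in USP12 cells. Both USP12 libraries were below both controls, although USP12 replicate 1 was only slightly below control replicate 2. The log2 fold change was -1.10 (standard error 0.54, edgeR adjusted p = 0.774). TBK1 (ENSG00000183735, chromosome 12, 64452090 to 64502114, plus strand), its constitutive relative, was measured at 24.6 and 39.7 CPM in control cells and at 29.9 and 23.1 CPM in USP12 cells. The groups overlapped, and the log2 fold change was -0.28 (standard error 0.45, edgeR adjusted p = 0.964). The difference between the fold changes of these 2 kinases was not tested.

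In the alternative branch, the control libraries were far apart for MAP3K14 and TRAF2, and the USP12 libraries lay between them. MAP3K14 (ENSG00000006062, chromosome 17, 45263119 to 45317029, minus strand), which encodes NIK, was measured at 110 and 35.2 CPM in control cells and at 75.3 and 90.9 CPM in USP12 cells. Its log2 fold change was 0.20 (standard error 0.58, edgeR adjusted p = 0.979). MAP3K14-AS1 overlaps it on the opposite strand over 6706 bases and was counted at 89, 54, 48 and 64 in the same order of libraries, against 1449, 635, 1046 and 1313 counts for MAP3K14. As the use of strand in counting is not stated, reads of the pair may be mixed. Transcripts that overlap CHUK, IKBKE, TBK1 and TNFAIP3 on the opposite strand had between 0 and 6 counts in any library. No counts were given for a transcript opposite TNIP1 over 423 bases, or for another on the strand of TBK1 over 4147 bases. Mixing of reads there could not be checked. TRAF2 (ENSG00000127191, chromosome 9, 136881912 to 136926607, plus strand), an adaptor of the TNF receptors, was measured at 101 and 31.9 CPM in control cells and at 54.7 and 41.7 CPM in USP12 cells. Its log2 fold change was -0.46 (standard error 0.59, edgeR adjusted p = 0.947). TRAF3 (ENSG00000131323, chromosome 14, 102777449 to 102911500, plus strand), which presents NIK for degradation, was measured at 20.2 and 18.2 CPM in control cells and at 13.0 and 21.6 CPM in USP12 cells. In TRAF3 it was the USP12 libraries that differed more, and they spanned the controls (log2 fold change -0.15, standard error 0.47, edgeR adjusted p = 0.979).

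Of the brakes, TNIP1 (ENSG00000145901, chromosome 5, 151029945 to 151093577, minus strand) had the highest level of the 10 genes, also per kilobase of exon. It had 691 and 238 CPM in the control libraries, or 9130 and 4295 counts, and 177 and 193 CPM in the USP12 libraries, or 2454 and 2786 counts. Both USP12 libraries were below both controls, and control replicate 1 was 2.90 times control replicate 2. The mean was 464 ± 320.2 CPM in control cells and 185 ± 11.5 CPM in USP12 cells (SD, n = 2 each). The log2 fold change was -1.33 (95% interval -2.65 to -0.0092, unadjusted p = 0.0489 and edgeR adjusted p = 0.654). TNFAIP3 (ENSG00000118503, chromosome 6, 137867214 to 137883314, plus strand) was measured at 13.9 and 12.4 CPM in control cells and at 9.36 and 7.76 CPM in USP12 cells, from 184, 223, 130 and 112 counts. Its libraries were close within each group, at 13.1 ± 1.11 CPM in control cells and 8.56 ± 1.13 CPM in USP12 cells (SD, n = 2 each), a ratio of 0.651. The log2 fold change was -0.62 (standard error 0.45, edgeR adjusted p = 0.894), and leaving out any 1 library gave values from -0.76 to -0.49.

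The promoters of 3 of these genes hold a match to the κB consensus motif, the sequence that NF-κB dimers bind, in the 250 bases before the start site given by RefSeq (GRCh38.p14). They are shown because TNFAIP3 and TNIP1, both lower in both USP12 libraries, are known NF-κB targets. Of the 10 genes, 9 had promoters in the RefSeq table, and IKBKB had none there. Over all 35116 promoters there, 5.21% held a match on either strand in that window. In TNFAIP3 the matches begin 67 and 55 bases before the start, in TNIP1 the match begins 42 bases before the start of the transcript used, 1 of 2 given for the gene, the other having no match, and in TRAF3 it begins 33 bases before the start. Each sequence is written 5′ to 3′ on the strand of the gene, with the matches in capitals. For TNFAIP3, 205 of the 250 bases are printed. That sequence stops at the base before the gene begins in GENCODE, short of the RefSeq start at 137867259 from which the distances are counted. The TNIP1 sequence lies inside the span that GENCODE gives TNIP1.
TNFAIP3, chr6:137867009-137867213, plus strand: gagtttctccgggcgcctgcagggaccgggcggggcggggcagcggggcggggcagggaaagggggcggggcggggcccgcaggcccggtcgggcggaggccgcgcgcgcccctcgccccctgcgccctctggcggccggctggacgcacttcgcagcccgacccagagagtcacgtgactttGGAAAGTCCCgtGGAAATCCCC
TNIP1, chr5:151081035-151081284, minus strand: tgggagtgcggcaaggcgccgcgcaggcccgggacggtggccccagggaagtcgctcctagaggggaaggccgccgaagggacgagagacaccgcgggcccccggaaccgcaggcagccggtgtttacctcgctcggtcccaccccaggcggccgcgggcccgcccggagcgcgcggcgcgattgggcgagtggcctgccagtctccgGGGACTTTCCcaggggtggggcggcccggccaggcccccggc
TRAF3, chr14:102777199-102777448, plus strand: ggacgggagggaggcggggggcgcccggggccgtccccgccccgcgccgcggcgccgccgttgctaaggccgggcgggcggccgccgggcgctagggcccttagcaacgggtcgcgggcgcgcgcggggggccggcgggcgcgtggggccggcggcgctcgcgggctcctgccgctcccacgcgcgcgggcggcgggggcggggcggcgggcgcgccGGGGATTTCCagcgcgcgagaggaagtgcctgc
The TNIP1 match GGGACTTTCC is the reverse complement of the first TNFAIP3 match, GGAAAGTCCC. The TRAF3 match GGGGATTTCC is likewise the reverse complement of the second TNFAIP3 match, GGAAATCCCC. The log2 fold changes of the genes that carry them were -1.33 for TNIP1, -0.62 for TNFAIP3 and -0.15 for TRAF3, so matches were found both in genes whose libraries were separated and in one whose libraries were not. No match was found in the other window of TNIP1 or in those of IKBKE, CHUK, TBK1, MAP3K7, MAP3K14 and TRAF2, which says only that these letters are not in these windows. IKBKE was thus lower in both USP12 libraries without a match in its window. A match is a description of the sequence, and binding was not measured.

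The choice of control library decided the direction for several of the genes. Taking the mean log2 CPM of the USP12 libraries minus that of 1 control, the difference of MAP3K7 was 1.56 against control replicate 1 and -0.34 against control replicate 2. For MAP3K14 it was -0.41 and 1.23, and for TRAF2 it was -1.08 and 0.58, in that order. CHUK (0.62 and -0.31) and TBK1 (0.096 and -0.59) also changed sign. The other 5 genes kept theirs. IKBKE went from -1.58 to -0.41 and TNIP1 from -1.90 to -0.37, while TNFAIP3 (-0.70 and -0.53), IKBKB (0.50 and 0.46) and TRAF3 (-0.27 and -0.12) moved by less. Both USP12 libraries lay between the controls in 4 of the 10 genes, beside 36.7% of all genes tested.

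With control replicate 2 left out, the edgeR log2 fold change was -1.57 for IKBKE, -1.89 for TNIP1, -1.05 for TRAF2, 1.59 for MAP3K7 and -0.39 for MAP3K14. Control replicate 1 was left out in another fit, that is among the 3 libraries that share a heading prefix. There the values were -0.40, -0.36, 0.59, -0.34 and 1.24, in the same order of genes. These fits take the lone control to vary as the USP12 libraries do, so only their effect sizes are given here. As the other prefix covers 1 control library, it cannot be told apart from that library.

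**Figure D2:**
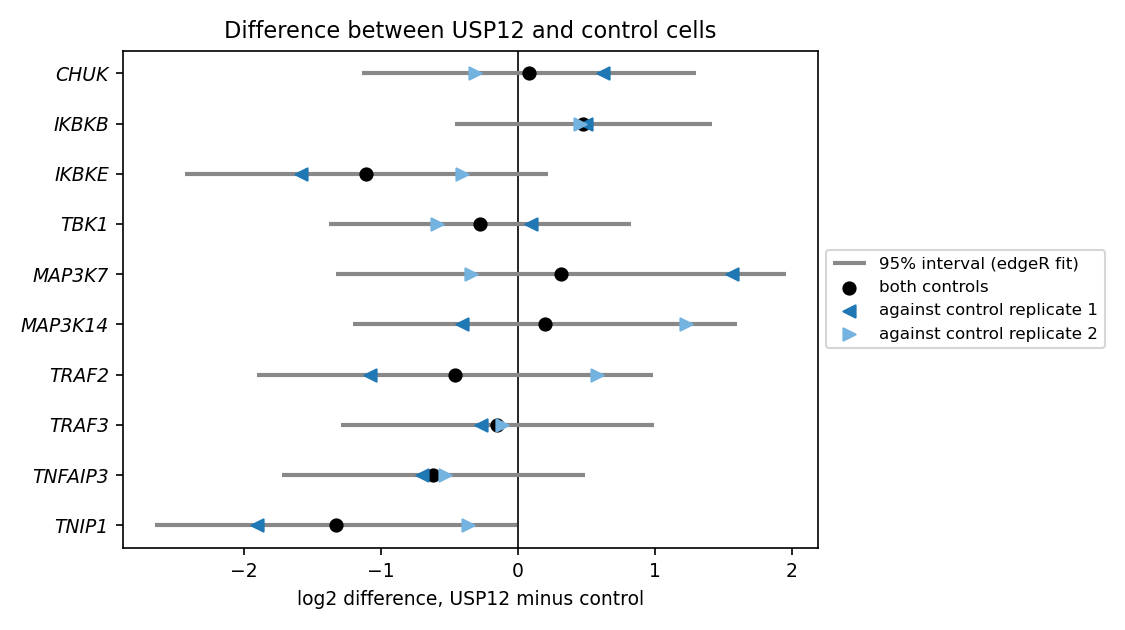
Log2 difference between USP12 and control cells for the 10 genes, with the edgeR estimate from all 4 libraries (black), its 95% interval (grey) and the difference against each control library alone (triangles). The triangles lie on opposite sides of 0 for CHUK, TBK1, MAP3K7, MAP3K14 and TRAF2, and close together for IKBKB, TRAF3 and TNFAIP3.

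For the 10 genes, the difference between the control libraries followed their base composition. GC content was that of the longest GENCODE transcript. MAP3K7 (38.9% GC), CHUK (36.3%) and TBK1 (36.1%) were lower in control replicate 1 than in control replicate 2, by 1.91, 0.93 and 0.69 on the log2 scale. TRAF2 (61.3% GC), MAP3K14 (59.0%), TNIP1 (59.2%) and IKBKE (58.7%) were higher in control replicate 1, by 1.66, 1.64, 1.54 and 1.18. The 3 genes between, TNFAIP3 (47.8%), IKBKB (50.3%) and TRAF3 (54.5%), differed by 0.17, -0.042 and 0.15. Of the 10 genes, 5 were 2-fold or more apart between the controls, beside 43.5% of all genes, and 0 were between the USP12 libraries, beside 7.90%. Across the 10 genes, Pearson's r between GC content and the log2 difference of control replicate 1 from control replicate 2 was 0.92 and Spearman's rho was 0.90. Across the 15094 tested genes with a GC content the relation was looser, with r at 0.54 and rho at 0.59, so single genes could depart from it. These points are genes measured in the same 2 libraries, and so they share any property of those libraries. With all genes split by GC content into 5 equal groups, the median difference in the lowest group was -0.95, and in the highest group it was 0.999, while between the USP12 libraries these medians were -0.073 and 0.086.

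With an offset for GC content fitted in each library, chosen after the data had been seen, the log2 fold change of TNIP1 was -0.94 (edgeR adjusted p = 0.393) and that of IKBKE -0.79 (adjusted p = 0.451). That of TNFAIP3 was -0.78 (adjusted p = 0.512) and that of IKBKB 0.40 (adjusted p = 0.666, both edgeR). The values of TNIP1 and IKBKE thus moved towards 0 and that of TNFAIP3 away from it, and TNIP1 no longer met the criterion of the study. That of TRAF2 went from -0.46 to -0.0087 and that of MAP3K14 from 0.20 to 0.59.

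**Figure D3:**
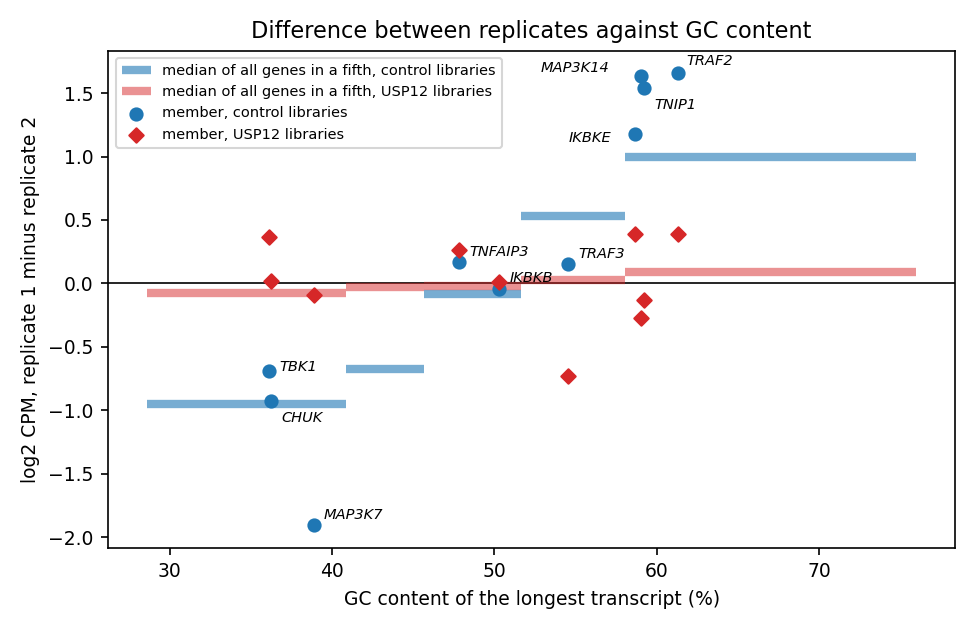
Log2 CPM of replicate 1 minus replicate 2 against the GC content of the longest transcript in percent, for the 10 genes in the control libraries (blue points) and the USP12 libraries (red diamonds). Bars are the medians of all tested genes in each of 5 equal groups by GC content. In the control libraries the 10 genes run from -1.91 for MAP3K7 to 1.66 for TRAF2, and in the USP12 libraries from -0.73 for TRAF3 to 0.39.

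Levels were compared between genes as CPM per kilobase of the joined GENCODE exons, which lowers genes with long alternative exons such as TBK1. In USP12 cells TNIP1 stood first, at 31.9 ± 1.99 CPM per kilobase (SD, n = 2). MAP3K14 (14.7 ± 1.95) and TRAF2 (13.2 ± 2.51) followed and did not differ beyond their spread. IKBKE (4.03 ± 0.768) and IKBKB (3.60 ± 0.0212) overlapped in the same way. CHUK (2.20 ± 0.0165), MAP3K7 (2.05 ± 0.0962), TBK1 (1.80 ± 0.324), TRAF3 (1.45 ± 0.515) and TNFAIP3 (1.33 ± 0.176) came last, where CHUK was above MAP3K7 in both libraries and each later neighbour overlapped with the next. In control cells the SDs were up to 55.3, for TNIP1 at 80.2 CPM per kilobase, and TNIP1 was again first in both libraries. Of the 10 genes, TNIP1 and IKBKE had the most similar courses over the 4 libraries, at a Euclidean distance of 0.46 between their mean-centred log2 CPM, and MAP3K7 and TNIP1 the least similar, at 2.996. Among all genes, SSR4, RNF24 and CD99 were closest to IKBKE (0.037, 0.052 and 0.052), and MXRA7, CIB1 and B3GNT4 closest to TNIP1 (0.11, 0.12 and 0.12).

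Around the 10 genes, 70 other genes of the pathway were listed in 5 groups, and 66 were tested. Of these, 7 met the criterion of the study as lower and 0 as higher, beside 4.41% and 2.92% of all genes. None of the 66 had an adjusted p under 0.05 in edgeR's quasi-likelihood test (0 of 66, with 7 at an unadjusted p under 0.05). Their median log2 fold change was -0.21. The direct partners of the kinases, such as the IKK regulatory subunit and the TAB and TANK adaptors, had a median of -0.0051, and 0 of 13 met the criterion in either direction. The largest values there were those of TAB2, which links TAK1 to ubiquitin chains, at 0.76 (standard error 0.94, from 5.98 and 60.3 CPM in the controls and 55.8 and 57.1 CPM in USP12 cells), and of the kinase MAP3K1 at 0.45 (standard error 0.47). As with MAP3K7, control replicate 1 was the library in which TAB2 was low.

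Among 14 adaptors and ubiquitin ligases, 2 met the criterion as lower. BIRC3, which encodes cIAP2, a ligase that joins TRAF2 and TRAF3, was measured at 50.5 and 37.5 CPM in control cells and at 10.01 and 11.1 CPM in USP12 cells. The separation of BIRC3 was wide against both controls (log2 fold change -2.06, standard error 0.44, unadjusted p = 0.0031 and edgeR adjusted p = 0.274). TRAF4 had 72.3 and 29.2 CPM in the controls and 17.0 and 18.0 CPM in USP12 cells (log2 fold change -1.53, standard error 0.55, edgeR adjusted p = 0.550). Of 13 further brakes, 11 were tested and 0 met the criterion, with a median of -0.062. The largest were RNF11, a partner of A20, at 0.83 (standard error 0.48) and the deubiquitinase CYLD at -0.59 (standard error 0.62).

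Of 20 receptors and their adaptors, 18 were tested and 3 met the criterion as lower. CD40, a TNF family receptor that also signals through NIK, had 27.8 and 6.32 CPM in the controls and 3.24 and 2.98 CPM in USP12 cells (log2 fold change -2.45, standard error 0.79, edgeR adjusted p = 0.470). TNFRSF1B, the second TNF receptor, had 77 and 12 counts in the controls and 7 and 4 in USP12 cells. IFIH1, an RNA sensor that signals to TBK1 and IKKε, had 3.86 and 35.0 CPM in the controls and 1.01 and 2.91 CPM in USP12 cells. CD40 and TNFRSF1B were higher in control replicate 1, and IFIH1 in control replicate 2. Among 10 substrates and effectors of the kinases, 2 met the criterion as lower and the median was -0.93. NFKB2, the precursor that IKKα marks for processing, had 194 and 80.4 CPM in the controls and 55.8 and 49.4 CPM in USP12 cells (log2 fold change -1.38, standard error 0.50, edgeR adjusted p = 0.567). IRF7, a substrate of TBK1 and IKKε, had 14.5 and 50.8 CPM in the controls and 4.03 and 3.19 CPM in USP12 cells (log2 fold change -3.17, standard error 0.72, edgeR adjusted p = 0.298). REL, an NF-κB subunit, had 9 and 577 counts in the controls and 0 and 57 in USP12 cells, and did not meet the criterion.

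Beside these, 12 of 28 tested NF-κB target genes met the criterion as lower and 0 as higher, with a median log2 fold change of -1.63 (-0.79 without control replicate 1 and -2.17 without control replicate 2). By the mean CPM of the 4 libraries, the highest were CXCL5, a chemokine, with 852 and 904 CPM in the controls and 289 and 300.1 CPM in USP12 cells, and the complement gene C3, with 1169 and 387 CPM and then 131 and 121 CPM. Of 23 tested interferon-stimulated genes, 14 met it as lower and 0 as higher, with a median of -2.81. By the same mean, the highest were OAS3, with 173 and 935 CPM in the controls and 121 and 132 CPM in USP12 cells, and OAS1, with 349 and 386 CPM and then 59.4 and 49.0 CPM. The control libraries differed in both lists: control replicate 1 exceeded control replicate 2 by a median of 1.58 for the NF-κB targets and was below it by 3.14 for the interferon-stimulated genes (median -3.14). The part of either response in the values of TNIP1, TNFAIP3 and IKBKE was not tested.

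**Figure D4:**
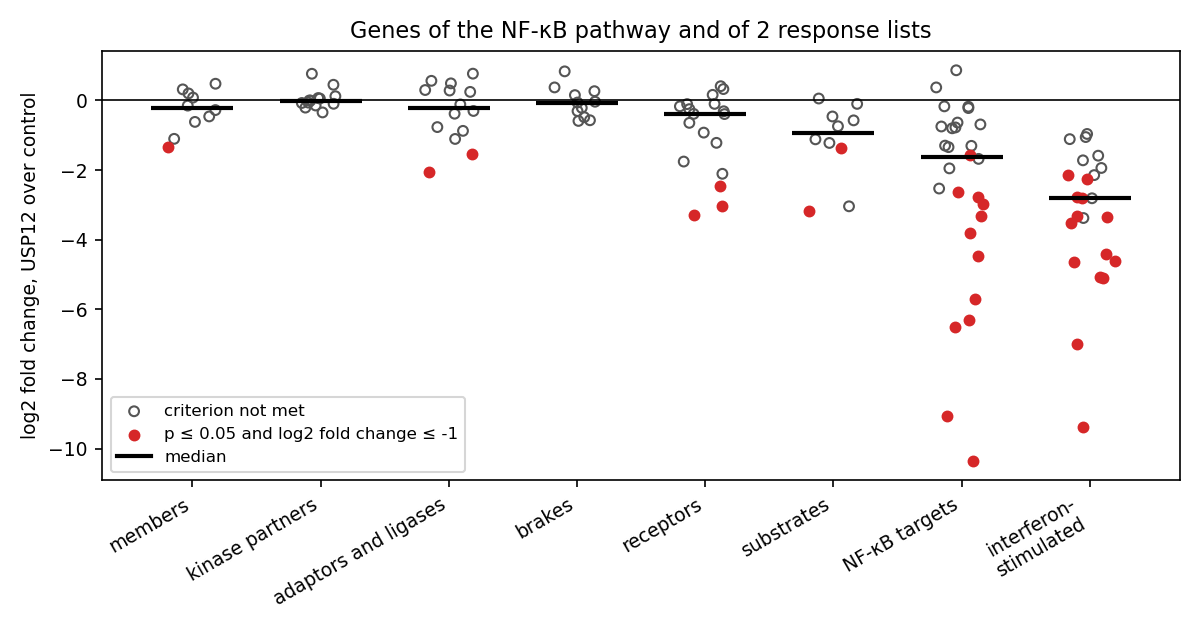
Log2 fold change of USP12 over control cells for each tested gene of the 10 members, the 5 pathway groups and the 2 response lists, with medians as bars. Filled points met the criterion for downregulated genes, which 4.41% of all tested genes met. They are 1 of the 10 members, 0 of 13 kinase partners, 2 of 14 adaptors, 0 of 11 brakes, 3 of 18 receptors, 2 of 10 substrates, 12 of 28 NF-κB targets and 14 of 23 interferon-stimulated genes.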

How the data were processed

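The members of the gene group and all gene lists were chosen with earlier results of these data known. Per the labels, GRCh38, HISAT2 2.0.4 and StringTie 1.3.0 were used. The authors trimmed adaptors and removed ribosomal RNA reads with Seqtk, mapped stranded mRNA libraries and deposited raw counts of uniquely mapped fragments per gene, without normalization. The annotation and the use of strand in counting are not given in the sources used here. Here, R 4.3.3 with edgeR 4.0.16 was used (filterByExpr, TMM, quasi-likelihood test, Benjamini-Hochberg adjustment over 15222 genes), and DESeq2 1.42.0 as an alternative. A prior count of 2 entered log2 CPM. Standard errors were taken from the fold change and the F statistic, and intervals use the t quantiles of the fit, so both are approximate. The fit was also run on simulated counts that gave both groups the same spread. The control and USP12 libraries here differ in spread, so that run says little about these data. Positions, exon lengths and GC content came from GENCODE 44, which held 99.2% of the tested genes by identifier.

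Named genes were USP12, the members, genes of the 5 pathway lists that met the criterion of the study or had the 2 largest absolute fold changes of their list, the 2 most abundant genes of each response list, and the 3 genes nearest in course to the 2 members with the largest fold changes. Same-numbered libraries deviated together with a correlation of 0.152, and the labels do not say that a number marks a shared batch. Alternatives were other size factors, filters and tests, a replicate block, each library left out, and, chosen after seeing the data, a GC content offset (lowess, span 0.3).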

Additional observations from a re-analysis of the deposited data

How the results depend on the processing

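No member passed an adjusted p of 0.05 in the 8 alternatives that kept all 4 libraries, and 9 of the 10 kept their direction there. TRAF2 was the exception, with a log2 fold change of 0.0245 in the fit that joined the replicate block to the offset for GC content. When a library was left out, the log2 fold change ran from -0.31 to 0.64 for CHUK, from -0.58 to 0.12 for TBK1, from -0.34 to 1.59 for MAP3K7, from -0.39 to 1.24 for MAP3K14, from -1.05 to 0.59 for TRAF2, from -0.57 to 0.17 for TRAF3, from -1.57 to -0.40 for IKBKE and from -1.89 to -0.36 for TNIP1. The positive value of TRAF3 came without USP12 replicate 1, and the other sign changes came with a control library left out.

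USP12 had a log2 fold change of 6.33 when low counts were not filtered, 6.43 under the replicate block, 6.35 under the offset for GC content, blocked or not, 6.32 by exact test and 6.31 by DESeq2, each past an adjusted p of 0.05, and from 5.85 to 7.04 with a library left out. It missed that threshold in the quasi-likelihood test as reported (6.32, edgeR adjusted p = 0.0975), with DESeq2 size factors (edgeR adjusted p = 0.0941) and with at least 10 counts in every library (edgeR adjusted p = 0.0902).

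By the criterion of the study, 671 lower and 445 higher genes compared with 1173 and 688 when low counts were not filtered, and ran from 274 to 2049 and from 171 to 2371 with a library left out. At an adjusted p under 0.05, edgeR's quasi-likelihood test gave 0 lower and 0 higher genes, with 1155 at an unadjusted p under 0.05. The numbers were 361 and 167 when nothing was filtered, 251 and 153 under the replicate block, 11 and 6 under the offset for GC content, 108 and 53 under both, 262 and 167 by exact test, 273 and 133 by DESeq2, and from 21 to 2542 and from 15 to 2475 with a library left out. Infinite prior degrees of freedom were estimated with nothing filtered, under the replicate block and without either USP12 library, so those fits use the spread of no single gene. The replicate block left 0 members called.

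The median of the adaptors and ligases was -0.042 under the offset for GC content, 0.0013 when the block was added, and from -0.24 to 0.16 with a library left out. That of the substrates was -0.57 and -0.48, and from -1.15 to -0.24. Left-out libraries gave from -0.22 to 0.62 for the brakes, from -3.77 to -0.49 for interferon-stimulated genes and from -2.17 to -0.79 for NF-κB targets. For the brakes, the interferon-stimulated genes and the NF-κB targets, both ends came with a control library left out. The causes were not tested. With 2 libraries per group, the 95% intervals of all 10 members reach a 2-fold difference in at least 1 direction, and those of CHUK, MAP3K7 and MAP3K14 reach it in both.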
